A study of Homo sapiens with 8 samples.

Results

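Genes that mark or control the passage between the epithelial and the mesenchymal state were examined in the human ovarian cancer (OC) cell line UWB1.289. They were the transcription factors SNAI1, SNAI2, ZEB1, ZEB2, TWIST1 and TWIST2, the mesenchymal products VIM and FN1, and the epithelial regulators GRHL2 and ESRP1. The 10 genes were chosen by name among 25369 named genes, and all 10 were among the 17714 that had enough counts to be tested. RNA-sequencing of poly(A) RNA gave 8 libraries in 4 groups of 2. BRCA1-null cells are UWB1.289 itself, which lacks functional BRCA1, and BRCA1+ cells are the derivative in which BRCA1 was restored. Each line received either DMSO (control) or 0.5 uM entinostat for 24 h, a drug that inhibits HDAC1 and HDAC3. Both lines thus share the UWB1.289 background. Each BRCA1 state is 1 line, so the effect of BRCA1 and any other difference between the lines cannot be told apart.

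Epithelial cells are joined to each other by adherens junctions, tight junctions and desmosomes and are polarized from base to apex. In epithelial-mesenchymal transition, factors of the Snail, ZEB and TWIST families repress junction genes such as CDH1 and favour genes of migratory, matrix-producing cells. GRHL2 and ESRP1 act on the other side, GRHL2 by activating epithelial genes and by opposing ZEB1, and ESRP1 by directing epithelial splicing. Ovarian cancer cells often express genes of both states.

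Libraries held 31900158 to 53549893 counts. The limit set by a count of 0, taken as 3 counts, corresponded to 0.0552 to 0.0946 CPM, where CPM are counts scaled for depth with trimmed mean of M values factors. These limits cover counting error only. BRCA1 itself, measured first as a check of the labels, was at 92.3 to 133.5 CPM in the 4 BRCA1+ libraries and at 17.6 to 22.4 CPM in the 4 BRCA1-null libraries. Markers of ovarian carcinoma and Mullerian epithelium (PAX8, MUC16, KRT7, EPCAM and WT1) summed to 4190 to 6910 CPM, although WT1 had only 1 to 20 counts per library. The keratin gene KRT7 carried most of this sum, at group means of 3580 to 5855 CPM, while those of PAX8 were 347 to 379 CPM. Fibroblast markers COL3A1, DCN and LUM had 0 counts in all 8 libraries and PDGFRB had 0 to 4. The fifth fibroblast marker, COL1A1, carried the sum of that list, which ranged from 4.07 to 4.45 CPM in the BRCA1+ control, 14.0 to 15.5 in the BRCA1+ entinostat, 9.10 to 9.14 in the BRCA1-null control and 17.5 to 22.3 in the BRCA1-null entinostat cells. Leukocyte markers (4 genes) summed to 2.65 to 9.02 CPM and endothelial markers (3 genes) to 4.73 to 10.3 CPM over the 8 libraries.

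Levels were compared between genes only after division by gene length, as RPKM (CPM per kilobase of gene). In BRCA1+ control cells FN1 was highest at 568 ± 83.3 (SD, n = 2), followed by ESRP1 at 61.5 ± 0.162, VIM at 23.0 ± 1.99 and GRHL2 at 10.2 ± 0.228. TWIST1 (2.13 ± 0.81) and SNAI2 (2.00 ± 0.0388) followed without a gap between their libraries, and SNAI1 was at 1.26 ± 0.162. TWIST2 (0.0713 ± 0.0273), ZEB1 (0.0576 ± 0.0150) and ZEB2 (0.0348 ± 0.00367) were lowest, and the libraries of TWIST2 and ZEB1 overlapped. The cells therefore held abundant fibronectin RNA together with both epithelial regulators.

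In BRCA1-null control cells the order was different at 2 places. FN1 remained highest at 611 ± 67.5 RPKM, but VIM (93.7 ± 0.328) came before ESRP1 (53.3 ± 0.161), and GRHL2 stood at 7.54 ± 0.357. TWIST2 moved to the head of the transcription factors at 6.38 ± 0.966, ahead of TWIST1 (3.96 ± 0.718), SNAI2 (2.14 ± 0.403), SNAI1 (1.70 ± 0.495), ZEB1 (0.321 ± 0.0758) and ZEB2 (0.0397 ± 0.00255). Libraries of SNAI2 and SNAI1 overlapped in this group. With entinostat, SNAI1 moved ahead of TWIST1 (2.19 ± 0.440 RPKM) and SNAI2 (1.87 ± 0.352) in BRCA1+ cells at 2.81 ± 0.290 RPKM. ZEB2 (0.0298 ± 0.0154) and TWIST2 (0.0259 ± 0.00567) overlapped at the low end there. In treated BRCA1-null cells TWIST2 (5.66 ± 1.73), TWIST1 (4.52 ± 0.378) and SNAI1 (3.77 ± 0.991) overlapped in that order, ahead of SNAI2 (2.30 ± 0.0974), ZEB1 (0.444 ± 0.104) and ZEB2 (0.0651 ± 0.0166). FN1 took 0.446% to 0.669% of all counts and ranked between the second and the fifth of all genes by count in each library.

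**Figure D1:**
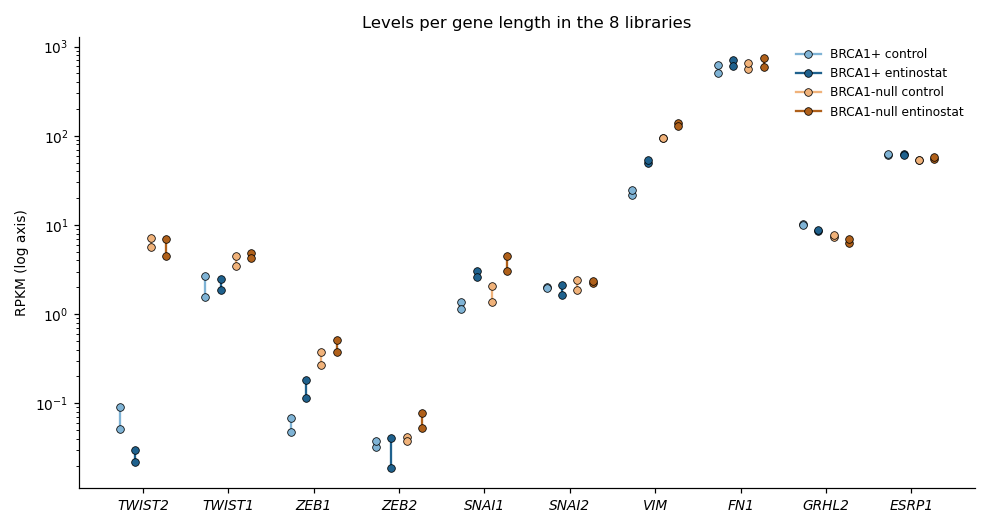
RPKM on a log axis for the 10 genes, with 1 point per library, colours for the 4 groups and a line joining the 2 libraries of a group. FN1 lies highest in every group, and TWIST2 shows the widest gap between the BRCA1+ and the BRCA1-null libraries.

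The sequence just upstream of the annotated start was examined because Snail and ZEB proteins bind the E-box CACCTG, which reads CAGGTG on the other strand. Windows of 250 bases before the start were read from GRCh37 and are shown for the 3 genes that differed most between lines. ZEB1 held 2 such E-boxes, 198 and 41 bases before its start. They stand in capitals below. TWIST2 and VIM held none, so their windows are in lower case throughout. All 3 genes lie on the plus strand, and the windows are chr2:239756423-239756672 (TWIST2), chr10:17270008-17270257 (VIM) and chr10:31607851-31608100 (ZEB1).
TWIST2: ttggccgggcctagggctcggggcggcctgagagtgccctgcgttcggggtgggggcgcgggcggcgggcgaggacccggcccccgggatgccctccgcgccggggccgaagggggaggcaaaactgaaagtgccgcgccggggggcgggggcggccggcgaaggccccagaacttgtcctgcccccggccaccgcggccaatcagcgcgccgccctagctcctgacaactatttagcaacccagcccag
VIM: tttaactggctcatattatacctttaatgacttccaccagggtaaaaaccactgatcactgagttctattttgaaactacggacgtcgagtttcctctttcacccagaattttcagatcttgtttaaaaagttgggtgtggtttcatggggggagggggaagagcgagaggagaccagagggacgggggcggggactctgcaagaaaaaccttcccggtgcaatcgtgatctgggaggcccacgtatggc
ZEB1: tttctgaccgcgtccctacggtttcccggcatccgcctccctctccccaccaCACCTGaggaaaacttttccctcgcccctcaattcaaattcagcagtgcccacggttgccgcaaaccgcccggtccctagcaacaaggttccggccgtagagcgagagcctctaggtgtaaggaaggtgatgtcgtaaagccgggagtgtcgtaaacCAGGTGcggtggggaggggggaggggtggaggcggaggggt
Of 17713 windows of this length before tested genes, 3258 (18.4%) held at least 1 of these E-boxes, as did those of 3 of the 9 genes whose windows are described, ZEB1, GRHL2 (1 E-box, 84 bases before the start) and ESRP1 (1, 212 bases before it). The count of CpG pairs ran from 6 (SNAI2) to 32 (FN1) over the 9 windows, with a median of 17 and quartiles of 7 and 26 over all windows. TWIST2 had 29 CpG, ZEB1 18 and VIM 9. A match to these letters is a description of the window and not of binding.

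The first comparison asks how the lines differ without drug. In DMSO, 6 of the 10 genes differed between BRCA1-null and BRCA1+ cells, with TWIST2, ZEB1, VIM and TWIST1 higher and GRHL2 and ESRP1 lower in BRCA1-null cells. Across all genes the lines differed widely, since 42.2% of the 17714 tested genes were called (21.1% higher and 21.0% lower) at a Benjamini-Hochberg adjusted p under 0.05 in the quasi-likelihood test of edgeR. The share of 6 in 10 stands beside that background, and no test of the set was made. The median log2 difference of the 10 genes was 0.29, against 0.012 for all tested genes. In entinostat, 5 of the 10 differed, 4 higher and 1 lower, and the call of ESRP1 was lost. The background there was 39.4% (20.5% higher, 18.9% lower). Comparisons of lines and of treatments share libraries and are not independent of each other.

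Entinostat changed 2 of the 10 genes in each line, and they were SNAI1 and VIM in both, always higher. Of all tested genes, 14.1% were called in BRCA1+ cells, 8.13% higher and 6.00% lower. The background was 10.8% in BRCA1-null cells, 7.57% higher and 3.19% lower. With upper-quartile scaling the higher share among called genes in BRCA1+ cells was 72.5%, against 57.6% with the scaling used here. A difference of the entinostat effect between lines was not called for any of the 10 genes in the edgeR test. In that test 0.00% of all genes were called and 827 had an unadjusted p under 0.05. The Wald test of DESeq2 called 11 genes in that comparison, and VIM was among them. So was 1 of the 2 tested antisense transcripts of the 10 genes. Nothing in the labels says that the 2 libraries of a group came from separate cultures, so the p-values measure the spread between these libraries, which may be technical.

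**Figure D2:**
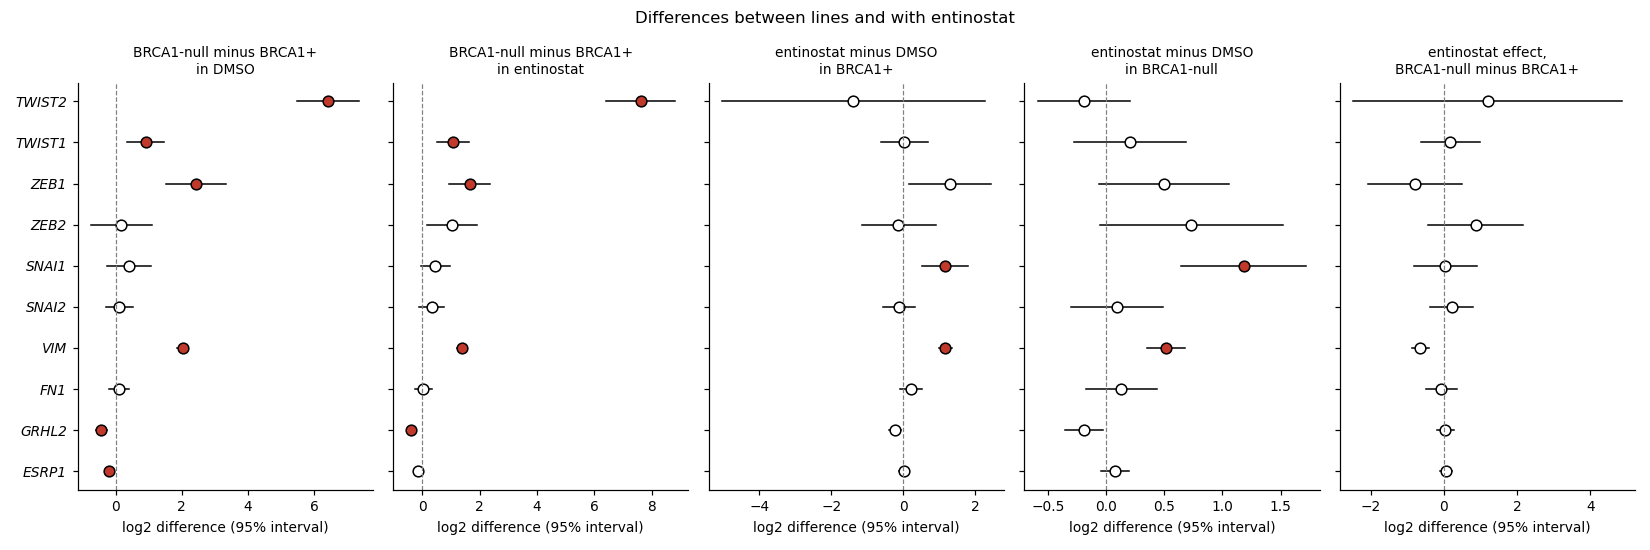
Log2 differences with 95% intervals for the 10 genes in the 5 comparisons, each panel with its own linear axis and filled points where the adjusted p was under 0.05. The filled points right of 0 are TWIST2, ZEB1, VIM and TWIST1 in both comparisons of lines, and SNAI1 and VIM in both comparisons with entinostat. Open points of other genes also lie right of 0 in these panels.

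TWIST2, a basic helix-loop-helix factor of mesenchymal precursors, showed the widest difference between the lines. The gene lies at chr2:239756673-239832244 on the plus strand of hg19. It had 3 and 6 counts in the BRCA1+ control, 1 and 2 in the BRCA1+ entinostat, 374 and 554 in the BRCA1-null control, and 300 and 415 in the BRCA1-null entinostat libraries. In CPM these were 0.075 and 0.131, 0.0315 and 0.0431, 8.22 and 10.2, and 6.40 and 9.94. The BRCA1+ libraries thus lay at or near the counting limit, whereas every BRCA1-null library was well above it. TWIST2 had enough counts to be tested only through the BRCA1-null libraries, where it was high.

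Against so few counts the fold of TWIST2 is best read with its counting interval. The summed counts of the control libraries (928 against 9) gave a depth-scaled ratio of 88.7, with a 95% interval of 46.5 to 195. In entinostat, 715 against 3 counts gave a ratio of 210 (71.6 to 1020). The fitted log2 differences, which depend on the prior count, were 6.43 ± 0.427 (SE, adjusted p = 2.96e-06) and 7.62 ± 0.545 (adjusted p = 5.2e-06). Entinostat did not change TWIST2 detectably at this depth in BRCA1+ cells (3 against 9 counts, ratio 0.367, 0.0638 to 1.47), and in BRCA1-null cells the log2 difference was -0.19 with an interval of -0.59 to 0.207 and an adjusted p of 0.54.

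TWIST1, the paralog of TWIST2, lies at chr7:19155091-19157295 on the minus strand. Its CPM were 4.50 and 2.59 in the BRCA1+ control, 4.16 and 3.13 in the BRCA1+ entinostat, 7.45 and 5.76 in the BRCA1-null control, and 7.98 and 7.09 in the BRCA1-null entinostat libraries. Every BRCA1-null library was above every BRCA1+ library. The gene was 1.88-fold higher in BRCA1-null cells in DMSO (log2 0.91 ± 0.246, adjusted p = 0.0159) and 2.12-fold higher in entinostat (1.08 ± 0.249, adjusted p = 0.00753). The first call was lost without BRCA1-null control replicate 1 (log2 0.74, adjusted p = 0.0702) and without BRCA1+ control replicate 2 (0.54, adjusted p = 0.126), and the second without BRCA1+ entinostat replicate 2 (0.85, adjusted p = 0.0914). With entinostat TWIST1 was not called in either line (log2 0.03, -0.62 to 0.68, in BRCA1+ and 0.20, -0.28 to 0.68, in BRCA1-null cells). Transcripts of TWIST1 and TWIST2 share no run longer than 23 bases.

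ZEB1, a zinc finger and homeodomain repressor of CDH1, differed between the lines at a lower level. It spans chr10:31608101-31818742 on the plus strand. Libraries held 12 and 20 counts in the BRCA1+ control, 37 and 34 in the BRCA1+ entinostat, 109 and 93 in the BRCA1-null control, and 155 and 99 in the BRCA1-null entinostat cells. These corresponded to 0.300 and 0.436, 1.17 and 0.733, 2.40 and 1.71, and 3.31 and 2.37 CPM. All 4 BRCA1-null libraries were above all 4 BRCA1+ libraries.

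ZEB1 was 5.41-fold higher in BRCA1-null cells in DMSO (log2 2.44 ± 0.400, adjusted p = 0.00121) and 3.13-fold higher in entinostat (1.65 ± 0.316, adjusted p = 0.00293). The latter call was lost without BRCA1+ entinostat replicate 2 (1.29, adjusted p = 0.0505). With entinostat, both BRCA1+ libraries were above both controls, at a log2 difference of 1.28 ± 0.503 that did not pass (adjusted p = 0.126). That effect passed with the Wald test of DESeq2 (adjusted p = 0.0408) and with a replicate block (adjusted p = 0.0348). In BRCA1-null cells the groups overlapped (0.50 ± 0.249, adjusted p = 0.235).

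ZEB2, the close relative of ZEB1, had few counts in all groups. It lies at chr2:145141942-145277958 on the minus strand, overlapped by ZEB2-AS1, which had 0 or 1 counts per library. ZEB2 had 15 and 20 counts in the BRCA1+ control, 7 and 22 in the BRCA1+ entinostat, 22 and 24 in the BRCA1-null control, and 42 and 26 in the BRCA1-null entinostat libraries. No comparison called it. The highest values were those of BRCA1-null entinostat cells, and the log2 difference between lines in entinostat was 1.04 ± 0.391 (adjusted p = 0.0615). The interval of the line difference in DMSO was -0.75 to 1.10 on the log2 scale, so a difference was not detectable at this depth. ZEB1 and ZEB2 share no exact run longer than 20 bases.

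SNAI1, the zinc finger repressor Snail, was the transcription factor that rose with entinostat. It lies at chr20:48599513-48605420 on the plus strand. Its CPM were 2.35 and 1.96 in the BRCA1+ control and 5.14 and 4.44 in the BRCA1+ entinostat libraries, and 3.49 and 2.30 in the BRCA1-null control and 7.63 and 5.24 in the BRCA1-null entinostat libraries. In each line both treated libraries were above both controls. The rise was 2.21-fold in BRCA1+ cells (log2 1.14 ± 0.282, adjusted p = 0.0288) and 2.27-fold in BRCA1-null cells (1.18 ± 0.238, adjusted p = 0.0169).

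These SNAI1 calls were lost in fits without 1 library, which left 1 library in a group. Calls over all genes also fell in those fits. In BRCA1+ cells the call was lost when any 1 of that line's 4 libraries was left out, with log2 differences of 1.01 to 1.27 and adjusted p-values of 0.0744 (without control replicate 1), 0.152 (control replicate 2), 0.129 (entinostat replicate 1) and 0.102 (entinostat replicate 2). In BRCA1-null cells it was lost without entinostat replicate 1 (0.88, adjusted p = 0.109), without control replicate 2 (0.89, adjusted p = 0.105) and in a fit of only the groups compared (adjusted p = 0.0704). A difference between the lines in the size of the rise was not detected, with a wide interval (0.04 ± 0.380, interval -0.82 to 0.90). Between lines SNAI1 was not called in DMSO (0.41 ± 0.298, adjusted p = 0.299) or in entinostat (0.45 ± 0.228, adjusted p = 0.149), although the entinostat groups did not overlap. The latter passed with a replicate block (adjusted p = 0.0356) and without BRCA1-null entinostat replicate 2 (0.69, adjusted p = 0.0464).

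SNAI2, also called Slug, showed none of these differences. The gene lies at chr8:49830239-49833999 on the minus strand. It was at 4.28 and 4.16 CPM in the BRCA1+ control, 4.48 and 3.43 in the BRCA1+ entinostat, 3.91 and 5.11 in the BRCA1-null control, and 4.71 and 5.00 in the BRCA1-null entinostat libraries. Both BRCA1-null entinostat libraries were above both BRCA1+ entinostat libraries, but no comparison called the gene. The 95% interval of the line difference in DMSO was -0.30 to 0.52 on the log2 scale, and those of the entinostat effects were -0.56 to 0.32 (BRCA1+) and -0.30 to 0.49 (BRCA1-null). SNAI1 and SNAI2 share no exact run longer than 12 bases.

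**Figure D3:**
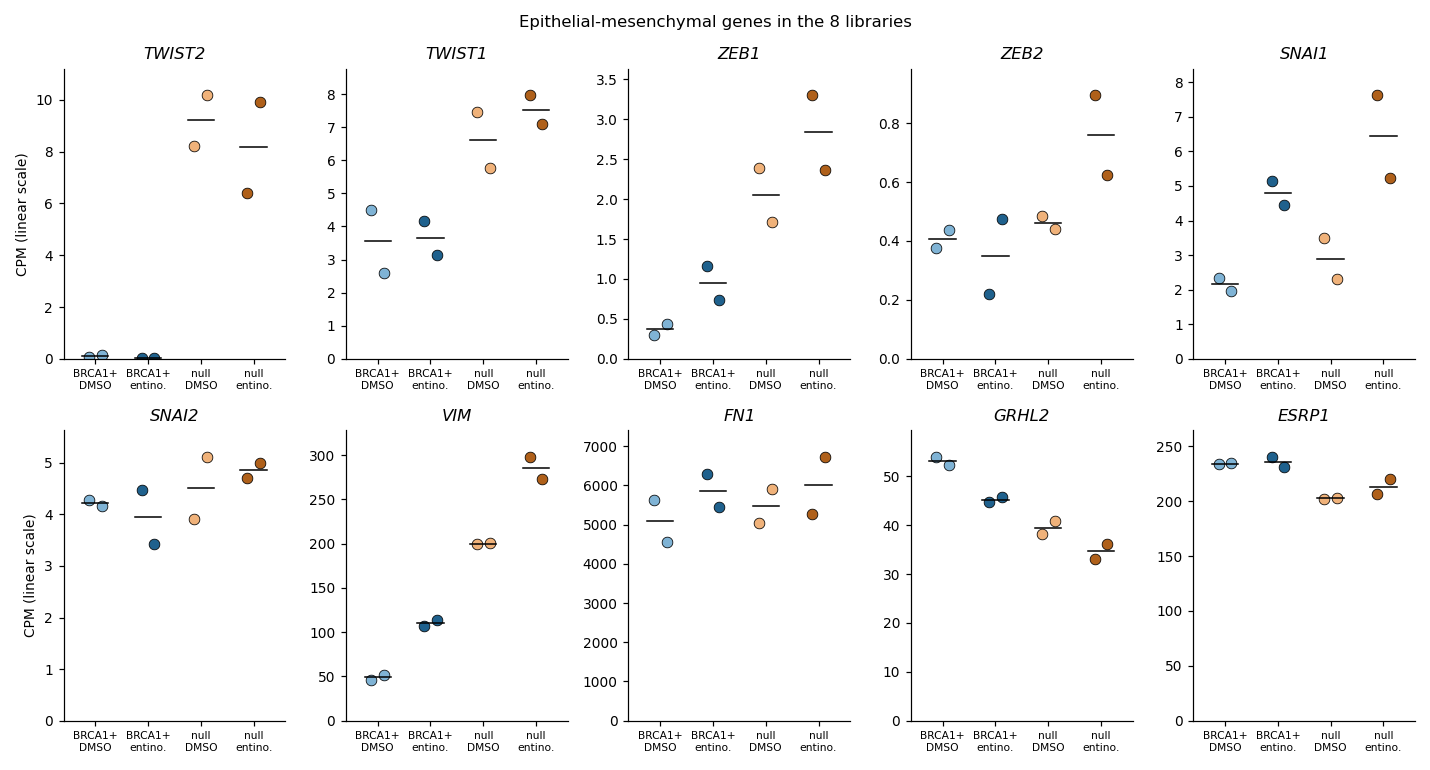
CPM of the 10 genes in each library on linear axes that start at 0, with 1 point per library and a line at the mean of the 2 libraries of a group. The 4 groups of VIM do not overlap, while the libraries of FN1 overlap in every comparison of lines or of treatments.

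VIM encodes vimentin, the intermediate filament protein of mesenchymal cells, and differed in every comparison of lines and of treatments. It lies at chr10:17270258-17279592 on the plus strand. Its CPM were 46.1 and 52.1 in the BRCA1+ control, 106.6 and 113.7 in the BRCA1+ entinostat, 199.5 and 200.5 in the BRCA1-null control, and 298 and 273 in the BRCA1-null entinostat libraries. The 4 groups did not overlap, and treated BRCA1+ cells stayed below untreated BRCA1-null cells.

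In DMSO VIM was 4.07-fold higher in BRCA1-null cells (log2 2.02 ± 0.0765, adjusted p = 4.08e-07) and in entinostat 2.59-fold higher (1.37 ± 0.0734, adjusted p = 2.75e-06). Entinostat raised VIM 2.24-fold in BRCA1+ cells (1.16 ± 0.0765, adjusted p = 0.000168) and 1.43-fold in BRCA1-null cells (0.51 ± 0.0712, adjusted p = 0.00418). These 4 calls were kept under each alternative setting and without each library. The rise was smaller in BRCA1-null cells by 0.65 ± 0.104 on the log2 scale (BRCA1-null minus BRCA1+, -0.65, interval -0.89 to -0.42). In edgeR this difference had an unadjusted p of 0.000139 and an adjusted p of 0.66, and in the Wald test of DESeq2 an adjusted p of 0.000854, so its call depended on the test.

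The antisense transcript VIM-AS1 overlaps VIM on the opposite strand and followed the same course. It was at 17.0 ± 0.310 CPM (SD, n = 2) in the BRCA1+ control, 36.7 ± 2.42 in the BRCA1+ entinostat, 65.0 ± 0.327 in the BRCA1-null control and 90.6 ± 2.63 in the BRCA1-null entinostat cells. The log2 difference between lines in DMSO was 1.93 ± 0.0732 (adjusted p = 4.08e-07). The library kit does not mark strand, so reads from VIM and VIM-AS1 cannot be told apart where the genes overlap. ZEB1-AS1, the only other antisense gene of the 10 that was tested, was not called in any comparison (log2 0.26, adjusted p = 0.60, between lines in DMSO).

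FN1 encodes fibronectin, a matrix glycoprotein, and was abundant in all groups without a call. It lies at chr2:216225179-216300791 on the minus strand. Its CPM were 5623 and 4566 in the BRCA1+ control, 6282 and 5446 in the BRCA1+ entinostat, 5051 and 5908 in the BRCA1-null control, and 5273 and 6729 in the BRCA1-null entinostat libraries. The groups overlapped in each comparison. The difference between lines was 0.11 (interval -0.20 to 0.41) in DMSO and 0.03 (-0.27 to 0.34) in entinostat on the log2 scale. Entinostat effects were 0.20 (-0.10 to 0.51) in BRCA1+ cells and 0.13 (-0.17 to 0.44) in the other line. Depth did not limit FN1, which had 199227 to 321188 counts per library, and the intervals reflect the spread between replicates.

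GRHL2, a grainyhead-like activator of epithelial genes, was modestly lower in BRCA1-null cells. It lies at chr8:102504668-102681952 on the plus strand. Its CPM were 54.0 and 52.3 in the BRCA1+ control, 44.6 and 45.8 in the BRCA1+ entinostat, 38.1 and 40.8 in the BRCA1-null control, and 33.1 and 36.1 in the BRCA1-null entinostat libraries. Every BRCA1-null library was below every BRCA1+ library. The fold in BRCA1-null cells relative to BRCA1+ cells was 0.743 in DMSO (log2 -0.43 ± 0.0713, adjusted p = 0.0013) and 0.764 in entinostat (-0.39 ± 0.0736, adjusted p = 0.00272), and both calls were kept without each library. Treated libraries were below control libraries in both lines, at log2 -0.23 ± 0.0718 (adjusted p = 0.0643) in BRCA1+ and -0.19 ± 0.0730 (adjusted p = 0.13) in BRCA1-null cells, which did not pass. The former passed with a replicate block (adjusted p = 0.0222).

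ESRP1, an epithelial splicing regulator, lies at chr8:95653364-95719694 on the plus strand and remained abundant. Its CPM were 234 and 235 in the BRCA1+ control, 240.4 and 231 in the BRCA1+ entinostat, 202 and 203 in the BRCA1-null control, and 207 and 220.0 in the BRCA1-null entinostat libraries. The BRCA1-null libraries were below the BRCA1+ libraries, at a fold of 0.866 in DMSO (log2 -0.21 ± 0.0530, adjusted p = 0.0121). This call was lost without BRCA1-null control replicate 1 (adjusted p = 0.0764), without BRCA1-null control replicate 2 (0.0548) and without BRCA1+ control replicate 2 (0.0527). In entinostat the difference was -0.14 ± 0.0532 (adjusted p = 0.059), which passed with DESeq2 size factors, upper-quartile factors or a replicate block (adjusted p = 0.0472, 0.0452 and 0.0312). Entinostat did not change ESRP1 detectably in either line (0.01, -0.11 to 0.13, and 0.07, -0.05 to 0.19). No 50-mer of GRHL2 or ESRP1 is shared with GRHL1, GRHL3 or ESRP2.

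Genes around the 10 loci gave a view of regional differences. Among the 20 nearest tested genes of TWIST1, 11 were higher and 0 lower in BRCA1-null cells in DMSO, with a median log2 difference of 0.55. The 20 neighbours of TWIST2 had a median of 0.12 (6 higher, 0 lower) and those of VIM 0.36 (5 higher, 0 lower), well under the 6.43 and 2.02 of the genes themselves. Over all tested genes 21.1% were higher and 21.0% lower, with a median of 0.012. The higher counts around TWIST2 and VIM were thus near the background, whereas their lower counts of 0 were under it. ZEB1 lay among genes of lower level, with a median of -0.38 over its 20 neighbours (1 higher, 8 lower), as did ZEB2 (-0.28, 1 higher and 8 lower). For the other 5 genes the medians ran from -0.36 (FN1) to 0.16 (ESRP1). The part of the neighbourhood in the differences of TWIST1, TWIST2 and VIM was not tested.

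Genes with the most similar pattern were sought for the 3 genes that differed between lines in DMSO by at least 1 on the log2 scale. Likeness was the root mean square distance between centred log2 CPM over the 8 libraries. ZEB1 was nearest to APBB1IP (0.241) and DNAH2 (0.265) among 13282 candidates. The nearest to TWIST2 were FOLR2 (0.300) and EVC (0.421), and the nearest to VIM were VIM-AS1 (0.0751) and HTR1D (0.127).

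Other transcription factors linked to epithelial-mesenchymal transition did not share 1 direction. Of 16 listed genes 14 were tested, and in DMSO 6 were higher, 4 lower and 4 not called in BRCA1-null cells (median log2 0.20), beside 21.1% higher and 21.0% lower over all tested genes. The count of lower genes was 2 without BRCA1+ control replicate 1, BRCA1-null control replicate 1 or BRCA1-null control replicate 2. GATA6, an endoderm and epithelial lineage factor, was at 1.35 ± 0.148 CPM (SD, n = 2) in BRCA1+ and 5.50 ± 1.43 in the BRCA1-null control cells (log2 2.02 ± 0.255). FOXQ1, a forkhead factor, was at 2.57 ± 0.745 and 8.56 ± 2.84 CPM (1.73 ± 0.271), whereas FOXC1, another forkhead factor, fell from 37.8 ± 1.95 to 17.4 ± 0.271 CPM (-1.12 ± 0.101). PRRX1, named after its values were seen, had 0 counts in both BRCA1+ control libraries and 19 and 23 counts in the BRCA1-null control libraries, so it was at least 6.09-fold higher against the limit of 3 counts per library. Like TWIST2, PRRX1 had enough counts to be tested only through the BRCA1-null libraries. With PRRX1 at that bound the median of the list was still 0.20. Entinostat raised 3 and lowered 1 of the 14 in BRCA1+ cells, beside 8.13% and 6.00% of all tested genes. It raised 2 and lowered 1 in the other line, beside 7.57% and 3.19%. The higher calls fell to 0 or 1 without single libraries, which were each of the 4 BRCA1+ libraries for BRCA1+ cells and any of the 8 libraries for BRCA1-null cells. The 1 lower call in BRCA1+ cells was lost without BRCA1+ entinostat replicate 1 or 2. That in BRCA1-null cells was lost without BRCA1-null control or entinostat replicate 1 and in a fit of only the groups compared.

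Among mesenchymal genes 14 were higher and 6 lower in BRCA1-null cells in DMSO. Of 36 listed genes 30 were tested, and 10 of these were not called. Of all tested genes 21.1% were called higher and 21.0% lower, so the lower count was near the background. The list had a median log2 difference of 0.29 against 0.012 for all tested genes. MMP2, a gelatinase, was at 0.364 ± 0.0519 CPM (SD, n = 2) in BRCA1+ and 44.7 ± 0.966 in the BRCA1-null control cells (log2 6.94 ± 0.201). THY1, a surface glycoprotein of fibroblasts and stem cells, was at 0.497 ± 0.0668 and 10.5 ± 1.46 CPM (4.38 ± 0.332). N-cadherin (CDH2), named after its values were seen, was lower in BRCA1-null cells (104.6 ± 1.68 and 85.0 ± 9.63 CPM, log2 -0.30, adjusted p = 0.0138). FSTL1 and CTGF, also named after their values were seen, lay lower in BRCA1-null cells as well. FSTL1 was at 574 ± 50.5 CPM in BRCA1+ and 171 ± 14.5 in the BRCA1-null control cells, and CTGF at 1406 ± 13.5 and 842.7 ± 91.9 CPM. In entinostat 13 were higher and 9 lower, beside 20.5% and 18.9% of all tested genes, and the lower count was 5 without BRCA1-null entinostat replicate 1. Entinostat raised 9 of the 30 and lowered 1 in BRCA1+ cells, beside 8.13% and 6.00% of all tested genes, and raised 7 and lowered 0 in the other line, beside 7.57% and 3.19%. The 1 lower call, of NT5E, was lost with upper-quartile factors and without any 1 of the 4 BRCA1+ or either BRCA1-null control library. The collagen gene COL3A1 and the proteoglycan genes DCN and LUM of this list had no counts at all, and COL1A1 belongs to both this list and the fibroblast markers given above.

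Receptors for fibronectin included several called genes. Of 10 listed genes, all tested, 5 were higher, 2 lower and 3 not called in BRCA1-null cells in DMSO (median log2 0.73), beside 21.1% higher and 21.0% lower over all tested genes. The lower count was near that background. ITGA5, the alpha subunit of the main fibronectin receptor, was at 4.22 ± 0.510 CPM (SD, n = 2) in BRCA1+ and 74.0 ± 7.68 in the BRCA1-null control cells (log2 4.14 ± 0.146, adjusted p = 2.49e-07). ITGA3, a subunit of an integrin for laminin and other matrix proteins, was at 120.5 ± 24.0 and 566 ± 7.56 CPM (2.23 ± 0.126), and ITGB6, of an epithelial integrin, at 74.1 ± 4.23 and 263 ± 70.2 CPM (1.83 ± 0.183). ITGB3 and ITGB5, named after their values were seen, were lower in BRCA1-null cells. ITGB3 was at 237.9 ± 5.27 CPM in BRCA1+ and 88.4 ± 1.91 in the BRCA1-null control cells, and ITGB5 at 336.6 ± 10.7 and 188.7 ± 24.2 CPM. Entinostat raised 4 of the 10 in BRCA1+ cells and 5 in the other line, with no lower call. Over all tested genes 8.13% were higher and 6.00% lower in BRCA1+ cells, and 7.57% and 3.19% in BRCA1-null cells. The count of 5 fell to 2 or 3 without BRCA1+ entinostat replicate 1 or 2, BRCA1-null control replicate 1 or 2, or BRCA1-null entinostat replicate 2.

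Among genes of junctions and polarity, BRCA1-null cells had 16 at a lower and 8 at a higher level in DMSO. All 36 listed genes were tested, 12 were not called, and the median log2 difference was -0.13. The higher count was near the background of 21.1% of all tested genes, and the lower count stands beside 21.0%. CDS1, a lipid enzyme of epithelial cells, was at 54.0 ± 0.281 CPM (SD, n = 2) in BRCA1+ and 33.3 ± 2.90 in the BRCA1-null control cells (-0.70 ± 0.0907), and TJP3, a tight junction scaffold, at 22.3 ± 0.200 and 14.1 ± 0.395 CPM (-0.66 ± 0.0739). MUC1, an apical mucin, was higher at 18.1 ± 12.9 and 70.2 ± 31.0 CPM (1.97 ± 0.502). E-cadherin (CDH1), named after its values were seen, was lower in BRCA1-null cells (log2 -0.49, adjusted p = 0.0121). The lower count was 9 without BRCA1+ control replicate 1 or BRCA1-null control replicate 1 and 10 without BRCA1+ control replicate 2, and the higher count was 4 without BRCA1+ control replicate 2 or BRCA1-null control replicate 2.

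With entinostat, BRCA1+ cells had 12 of the 36 junction genes higher and 4 lower, where 8.13% and 6.00% of all tested genes were called higher and lower. BRCA1-null cells had 7 higher and 3 lower, beside 7.57% and 3.19%. In that line 70.4% of all called genes were higher, so its balance of higher and lower junction genes was near the background. CDH1 rose in both lines, at log2 0.64 (adjusted p = 0.0102) and 0.49 (adjusted p = 0.0389), and TJP3 rose by 1.26 (adjusted p = 0.000106) and 1.31 (adjusted p = 0.000134). CDH1 and its repressor SNAI1 were thus both higher in the treated libraries of each line. Other junction genes went down, among them PKP3 and MARVELD3, named after their values were seen. PKP3 was at 90.1 ± 5.26 CPM in control and 65.5 ± 1.62 in treated BRCA1+ cells, and at 88.25 ± 0.333 and 69.4 ± 4.60 CPM in BRCA1-null cells. MARVELD3 was at 12.7 ± 2.24 and 9.24 ± 0.176 CPM in BRCA1+ cells, and at 16.0 ± 0.658 and 10.1 ± 0.190 CPM in BRCA1-null cells. The count of 12 was 6 without BRCA1+ entinostat replicate 1 and 4 without BRCA1+ control or entinostat replicate 2. The count of 4 lower genes was 1 or 2 without each of the 4 BRCA1+ libraries. In BRCA1-null cells the counts were 4 and 1 without control replicate 2 or entinostat replicate 1, and the higher count was 13 with a replicate block.

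**Figure D4:**
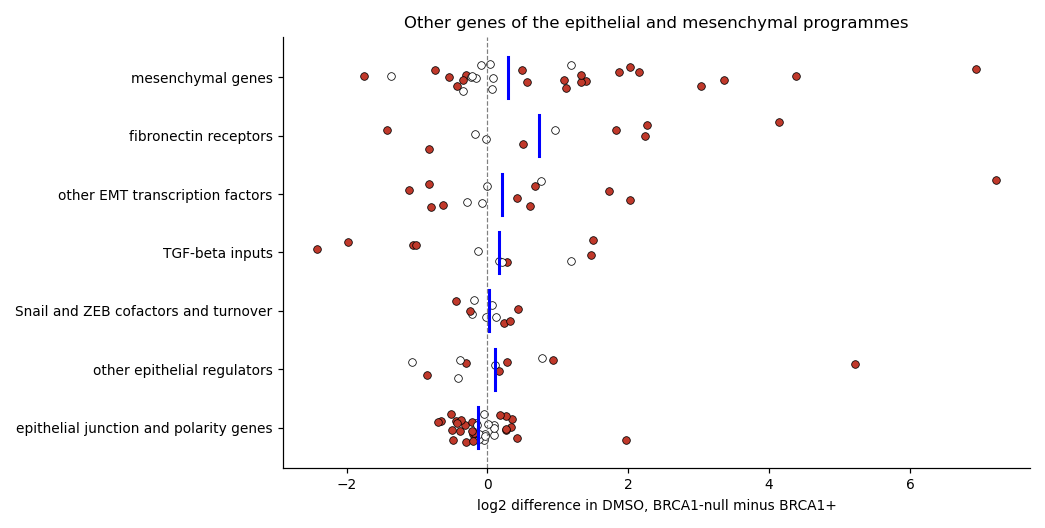
Log2 differences between BRCA1-null and BRCA1+ cells in DMSO for the tested genes of 7 lists, filled where the adjusted p was under 0.05, with a bar at the median of each list. Mesenchymal genes spread from below -1 to above 6, junction genes stay near 0 with MUC1 apart, and the rightmost point among transcription factors is PRRX1, whose position depends on the prior count.

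Other epithelial regulators were mixed. Of 12 listed genes 11 were tested, and in DMSO 4 were higher, 2 lower and 5 not called in BRCA1-null cells, beside 21.1% higher and 21.0% lower over all tested genes. EHF, an epithelial ETS factor, was at 1.67 ± 0.475 CPM (SD, n = 2) in BRCA1+ and 61.5 ± 14.2 in the BRCA1-null control cells (log2 5.22 ± 0.287), so an epithelial factor was among the genes with the widest difference. KLF4, a zinc finger factor, was at 12.7 ± 0.515 and 24.1 ± 0.838 CPM (0.93 ± 0.0913), and GRHL1, a relative of GRHL2, fell from 26.8 ± 0.596 to 14.8 ± 1.34 CPM (-0.86 ± 0.0880). The higher count was 2 without BRCA1+ control replicate 2 or BRCA1-null control replicate 2, and the lower count was 4 without BRCA1-null entinostat replicate 1 or 2 and with the Wald test, and 5 with a replicate block. Of the miR-200 loci, whose RNAs target ZEB1 and ZEB2, MIR200A, MIR200B, MIR200C and MIR141 had 1 to 10 counts per library and were not tested. MIR429 was not called (log2 0.77, adjusted p = 0.244). MIR205HG, the host of miR-205 and not itself a miR-200 locus, was called between lines in DMSO on few counts (2.89 ± 1.04, adjusted p = 0.0488). It had 0 to 9 counts in the BRCA1+ and 8 to 49 in the BRCA1-null libraries. Like TWIST2, it had enough counts to be tested only through the BRCA1-null libraries. The call was lost without BRCA1+ entinostat replicate 1 or 2, BRCA1+ control replicate 2 or BRCA1-null control replicate 2. It was also lost without a filter and in a fit of only the groups compared. Poly(A) libraries are not made to capture mature miRNAs, so these counts do not measure them.

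Genes that feed the pathway from transforming growth factor beta (TGF-beta), an inducer of the transition, went both ways. Of 11, all tested, 3 were higher, 4 lower and 4 not called in BRCA1-null cells in DMSO, beside the same 21.1% and 21.0% of all tested genes. SMAD3, a signal transducer of TGF-beta, was at 40.7 ± 1.67 CPM (SD, n = 2) in BRCA1+ and 114 ± 16.6 in the BRCA1-null control cells (log2 1.49 ± 0.110). The ligand TGFB2 fell from 17.6 ± 1.52 to 3.34 ± 0.745 CPM (-2.42 ± 0.214), and the inhibitory SMAD6 from 8.16 ± 1.83 to 2.08 ± 0.474 CPM (-1.98 ± 0.288). Another ligand, TGFB1, went the other way, at 36.5 ± 4.25 CPM in BRCA1+ and 100.9 ± 6.8 in the BRCA1-null control cells. The receptor TGFBR2 was lower in BRCA1-null cells, at 209 ± 21 and 100.7 ± 4.18 CPM. TGFB1 and TGFBR2 were named after their values were seen. Cofactors and turnover factors of Snail and ZEB moved little. Of 10, all tested, 3 were higher and 2 lower, which is near those shares, the largest being CTBP2, a corepressor of ZEB1 (-0.45 ± 0.0566), FBXL5, a ubiquitin ligase subunit (0.43 ± 0.0818), and the scaffold SIN3A (0.31 ± 0.0752). The lower count was 1 with upper-quartile factors, in a fit of only the groups compared and without BRCA1+ control replicate 1.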

How the data were processed

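Poly(A) RNA of UWB1.289 cells was sequenced in 8 libraries. Per the labels and the study's methods, the authors aligned reads to hg19 with TopHat 2 and deposited raw read counts per gene made with NGSUtils. Handling of strand and of reads with several positions is not given in the sources used here. The deposited table also gives gene positions and lengths.

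Groups and replicate numbers came from the sample titles. Genes were kept by filterByExpr, library sizes were scaled by TMM, and all 8 libraries entered 1 quasi-likelihood fit in edgeR 4.0.16 (R 4.3.3) with 1 coefficient for each group and 4 residual degrees of freedom. Genes with an adjusted p under 0.05 (Benjamini-Hochberg over 17714 genes, two-sided) were called. The common biological coefficient of variation was 9.04%, and replicates correlated at 0.9915 to 0.9923 in log2 CPM across genes, which are not independent replicates. Intervals are 95% intervals, and those of TWIST2 ratios are exact and cover counting error only. SD and SE are over 2 libraries and from the fit. The code was tested on simulated data.

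The 10 genes and the gene lists were chosen with earlier results of these data known, and the lists were compiled from general knowledge. Named genes were the 10 genes, BRCA1, and, per list, the 3 called genes with the largest log2 difference between lines in DMSO and an average of 1 or more on the log2 CPM scale. For each of the 10 genes that differed by at least 1 in DMSO, the 2 tested genes with the nearest pattern were named too. The values of 1 gene named by these rules and the window of 1 of the 10 genes are not reported here. Windows before gene starts were read from the GRCh37 genome, and shared runs were sought in GENCODE transcripts on that build. Alternatives were DESeq2 1.42.0 size factors and its Wald test, upper-quartile factors, no filter, only the groups compared, the replicate number as a block, and leaving out each library. Counts of list genes under these settings were added after seeing the data.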

Additional observations from a re-analysis of the deposited data

How the results depend on the processing

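The 15 called differences of the 10 genes kept their direction in all 210 alternatives, and 14 of these took the call away. Of the 479 alternatives for the other 35 differences, 31 reversed a value near 0 and 9 passed the threshold. The number of the 10 genes called without 1 library was 4 to 6 for the lines in DMSO, 3 to 6 for the lines in entinostat (3 without BRCA1+ entinostat replicate 2), and 1 to 2 for entinostat in either line. A replicate block gave 4 called genes for entinostat in BRCA1+ cells (SNAI1, ZEB1, VIM and GRHL2), 7 for the lines in entinostat, and the counts given above (6, 2 and 0) elsewhere. Calls over all 17714 tested genes also rose with the block. They were 4314 against 2503 for entinostat in BRCA1+ cells and 8398 against 6975 for the lines in entinostat. Whether equal replicate numbers pair the libraries was not shown, as deviations of same-numbered libraries correlated at 0.0523 to 0.287 with 2 numbers only. A fit of only the groups compared gave 1 (VIM) for entinostat in BRCA1-null cells, and the Wald test of DESeq2 gave 1 (VIM) for the difference of the entinostat effects. For that difference in SNAI1 the log2 value turned to -0.0015 with upper-quartile factors, -0.00248 with the Wald test and -0.00341 with a replicate block, and in GRHL2 to -0.00259 with upper-quartile factors. The cause was not tested.

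Values that changed sign without 1 library had these log2 ranges. Between lines in DMSO they were -0.11 to 0.30 (SNAI2) and -0.0373 to 0.26 (FN1), and in entinostat -0.15 to 0.20 (FN1). For entinostat in BRCA1+ cells they were -0.29 to 0.0831 (SNAI2), -0.88 to 0.22 (ZEB2), -0.34 to 0.46 (TWIST1) and -0.0163 to 0.0338 (ESRP1). In BRCA1-null cells they were -0.10 to 0.31 (SNAI2), -0.53 to 0.10 (TWIST2) and -0.0556 to 0.30 (FN1). For the difference of these effects they were -0.27 to 0.32 (SNAI1), -0.26 to 0.54 (TWIST1), -0.26 to 0.0933 (FN1) and -0.0366 to 0.10 (GRHL2).

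Over all genes, 4527 were called between lines in entinostat without BRCA1+ entinostat replicate 2, against 6975. A fit of only the groups compared called 712 genes for entinostat in BRCA1-null cells against 1906, and a replicate block 3640. In BRCA1+ cells the block called 4314 against 2503. Without 1 library the counts were 676 to 2413 in BRCA1+ and 512 to 1597 in BRCA1-null cells. Upper-quartile factors moved the median of all genes by less than 0.1 on the log2 scale. TWIST2 in BRCA1+ cells, ZEB2 in all groups and ZEB1 in BRCA1+ cells were limited by depth. TWIST2 was not tested for entinostat in BRCA1+ cells in the fit of only those groups, where it had too few counts.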
